A study of Homo sapiens with 4 samples.

Results

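Of the 458932 distinct intervals that the first eCLIP library listed as peaks, 612 (0.133%) shared 1 base or more of the same strand with a peak of each of the other 3 libraries. These 612 shared sites, out of 568810 distinct intervals over all 4 lists, are the sequences that were recovered with and without the immunoprecipitation. The sites were chosen by the peaks themselves, so their number and the presence of reads in every library are given as a description, with no test.

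RNA crosslinked to ZFR was mapped in HEK-293 Flp-In TREx cells, an established line of human embryonic kidney origin. All 4 libraries, the controls included, came from cells carrying FLAG-ZFR stably integrated in FRT site, kept as a polyclonal culture, induced with doxycycline at 1 µg/mL for 48 to 72 h and crosslinked with ultraviolet light at 400 mJ/cm2. ZFR-eCLIP-1 and ZFR-eCLIP-2 (eCLIP 1 and eCLIP 2 here) are immunoprecipitations, and ZFR-SMI-1 and ZFR-SMI-2 (input 1 and input 2) are size-matched inputs. No library of cells without the transgene was compared, and the labels do not state separate cultures for libraries of the same kind. A p-value here therefore rests on the spread between 4 libraries, which may be technical, and on a variance trend that the limma fit takes over all regions.

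In eCLIP (enhanced crosslinking and immunoprecipitation), RNA pieces crosslinked to a protein by ultraviolet light are pulled down with that protein and sequenced, and the size-matched input is RNA of the same gel range without the pull-down. RNAs that are very abundant in the cell, such as ribosomal RNA, mitochondrial transcripts and structured small RNAs, give fragments in any such library, which is why the input is used as the measure of background. ZFR is an RNA-binding protein with zinc fingers and a DZF dimerisation domain, studied for its part in alternative splicing. Mitochondrial transcripts are made from both strands of a small circular genome as long precursors, which are cut into 2 rRNAs, the mRNAs of respiratory chain subunits and the tRNAs between them.

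The lists differed widely in length, with 458932, 39168, 60227 and 10483 distinct intervals in eCLIP 1, eCLIP 2, input 1 and input 2. The reads in those intervals came to 2944100, 216406, 238392 and 98185. Reads were taken from the last number in each peak's name, whose meaning the files do not explain. Only peaks were deposited, with no peak below 3 reads, so the depth of the libraries is unknown and every share below is a share of the reads in a library's own peaks.

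The shared sites were a small part of every list and a much larger part of its reads. The peaks at these sites numbered 612, 506, 536 and 515 in eCLIP 1, eCLIP 2, input 1 and input 2. As a share of each list this was 0.133% (Wilson 95% interval 0.123 to 0.144), 1.29% (1.18 to 1.41), 0.890% (0.818 to 0.968) and 4.91% (4.52 to 5.34), and these intervals cover counting error only. The same peaks held 4.56% of the reads in peaks of eCLIP 1, 10.6% of those of eCLIP 2, 6.84% of those of input 1 and 36.5% of those of input 2. The shared sites outside chromosome M held 2.74%, 4.76%, 5.43% and 13.6%, and input 2 was the highest either way. Mitochondrial reads stayed in the totals of reads in peaks that these shares were taken of. The bases covered at the shared sites differed little, from 15369 in eCLIP 2 to 20014 in input 2, while the whole lists covered between 313854 bases (input 2) and 13508370 bases (eCLIP 1). The mean number of reads per peak was 219, 45.3, 30.4 and 69.7 at the shared sites, against 6.42, 5.53, 3.96 and 9.37 over the lists.

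Reads per site followed the size of the libraries only in part. The median site had 70.5 reads in eCLIP 1, 14 in eCLIP 2, 16 in input 1 and 18 in input 2. For eCLIP 1 these are the reads of the site's own peak, and for the other libraries the sum over all peaks overlapping the site. With only the strongest overlapping peak of each library, the medians were 70.5, 11, 14 and 14. The site-by-site ratios below use the sums. The quartiles of the sites were 24 and 265 reads in eCLIP 1, 6 and 58 in eCLIP 2, 7 and 50 in input 1 and 7 and 51.25 in input 2. At a deposited p of up to 0.001 the medians were 153, 38, 37 and 35 reads, so the order of eCLIP 2 and the inputs turned. The median peak of the whole list had 4, 3, 3 and 4 reads. Site by site, eCLIP 1 had a median of 4.22 times the reads of eCLIP 2 (quartiles 1.99 and 7) and 4 times those of input 1. Input 2 had 1.12 times the reads of input 1 (quartiles 0.667 and 2), although its list held fewer peaks. eCLIP 2 had 0.793 times the reads of input 2.

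Strong peaks lay at shared sites far more often than weak ones. Of the peaks with at least 100 reads, 242 of 994 in eCLIP 1 (24.3%) lay at a shared site, as did 48 of 76 in eCLIP 2 (63.2%), 31 of 37 in input 1 (83.8%) and 51 of 81 in input 2 (63.0%). Among the peaks of 3 reads in eCLIP 1 the share was 0.0115%. The 20 peaks with most reads included 16, 17, 17 and 15 at shared sites in eCLIP 1, eCLIP 2, input 1 and input 2. At the other end, 31 sites had at most 10 reads in every library, and 17, 41, 53 and 51 sites stood at the minimum of 3 reads in eCLIP 1, eCLIP 2, input 1 and input 2. A total of 56 sites had at least 100 reads in all 4 libraries, and 36 of these lay on chromosome M.

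**Figure D1:**
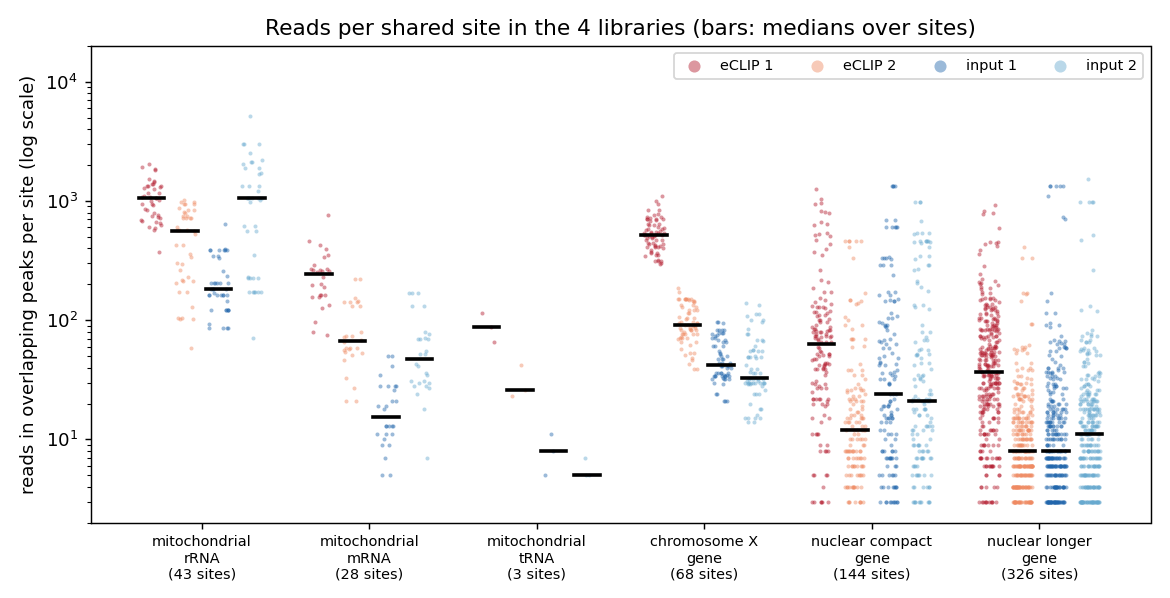
Reads of each library (vertical axis, log scale) at every shared site, grouped by RNA class, with 1 point per site and library and bars at the medians. Points of eCLIP 1 give the site's own peak, and those of the other libraries give the sum over overlapping peaks. Mitochondrial rRNA sites have the highest median in every library, at 1066, 561, 181 and 1057 reads in eCLIP 1, eCLIP 2, input 1 and input 2, and the many sites in longer nuclear genes are the lowest of the nuclear classes.

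The sites were spread unevenly over RNA classes. Chromosome M held 74 of the 612 (12.1%, Wilson 95% interval 9.74 to 14.9), where it held 0.0516%, 0.337%, 0.130% and 0.820% of the intervals of the 4 lists. Chromosome X held 94 sites (15.4%, against 2.36% to 3.97% of the lists), 68 of them in a single gene, and chromosome 11 held 57. A further 144 sites (23.5%, 20.3 to 27.0) lay in compact nuclear genes, meaning genes whose peaks over all 4 libraries spanned fewer than 500 bases, and such genes held 0.713%, 1.32%, 2.70% and 9.48% of the lists. The remaining 394 nuclear sites, with the 68 on chromosome X among them, lay in longer genes. The strands were even, with 303 sites on the minus strand. These counts depend on the peak limit and on each library: at a deposited p of up to 0.001 there were 351 sites, 18.8% of them on chromosome M and 19.4% in the chromosome X gene. Without the need for a peak in eCLIP 2, input 1 or input 2 there were 1038, 1269 and 1326 sites, with 7.32%, 8.83% and 7.84% on chromosome M and 22.4%, 13.4% and 17.8% in compact genes.

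The sites came from 410 gene entries, of which 333 held 1 site, 47 held 2 and 30 held 3 or more. The sites were narrow, with a median width of 32 bases in eCLIP 1, and they were not independent of each other: 305 touched or overlapped another shared site, and 201 met the same peaks in all 3 other libraries as another site. Joining touching and overlapping peaks of all libraries placed the 612 sites in 416 regions, 297 of them with 1 site and the fullest with 20. Sites of different gene entries overlapped in 78 pairs of entries, and 61 of these paired a compact with a longer gene, where the same reads can be listed under both. Only 4 sites had a peak on the opposite strand in any library.

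The 2 mitochondrial rRNAs held 43 sites. RNR2 (ENSG00000210082.2), the 16S rRNA of the large subunit of the mitochondrial ribosome, held 30 sites on the plus strand of chromosome M between positions 1703 and 2442 of hg19. Its median site had 1138.5 reads in eCLIP 1, 727 in eCLIP 2, 204 in input 1 and 1325 in input 2. Input 2, the library with the fewest reads in peaks, was thus the highest of the 4 at the median RNR2 site, and input 1 was the lowest. That order depends on the counting, since a site counts only its own eCLIP 1 peak but the sum of all overlapping peaks elsewhere. Over all peaks of the gene, the reads were 61089 in eCLIP 1, 13325 in eCLIP 2, 2707 in input 1 and 27924 in input 2, with eCLIP 1 the highest. Over all its peaks, RNR2 took 207, 616, 114 and 2844 of every 10000 reads in peaks in eCLIP 1, eCLIP 2, input 1 and input 2. The inputs lay on either side of the eCLIP libraries, so the groups overlapped.

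The site with most summed reads in any library lay at positions 2275 to 2278, with 1523, 938, 388 and 5151 reads in eCLIP 1, eCLIP 2, input 1 and input 2. The 5151 is a sum over overlapping peaks, since no single peak of input 2 had more than 3017 reads. The site with most eCLIP 1 reads, at 2404 to 2423, had 2029, 727, 181 and 1057. Where the sites end, the libraries differed. Beyond position 2442 the eCLIP libraries listed 24 and 6 peaks in RNR2, with 30.5% and 12.2% of the gene's reads, and each input listed 1 peak, with 4.99% and 2.33%. The lists' lengths also differ, and their part in this was not tested.

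**Figure D2:**
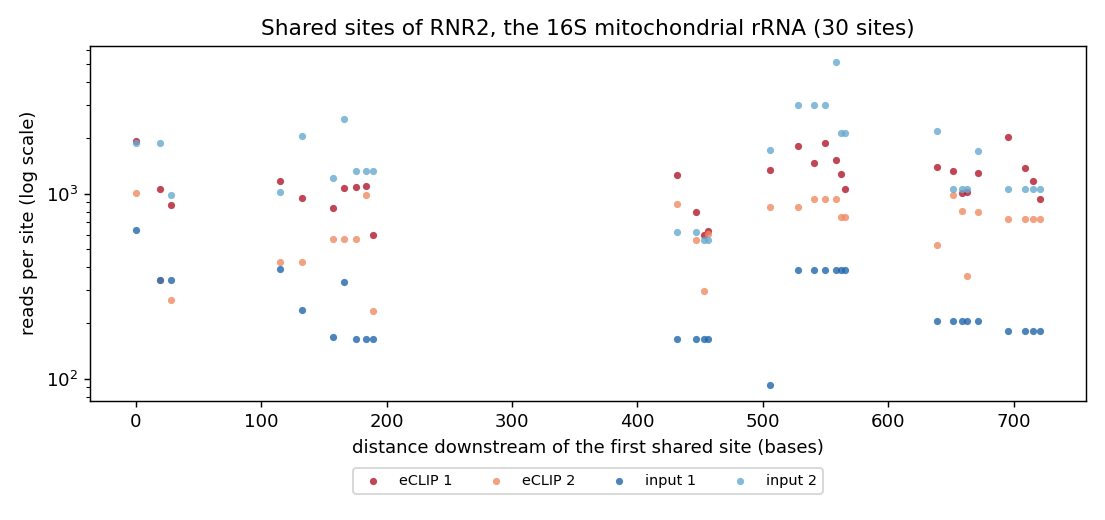
Reads per site (log scale) in each library at the 30 shared sites of RNR2, plotted by distance in bases downstream of the first site. Input 2 lies above eCLIP 1 at most sites and input 1 lies lowest at most, so the inputs stand on both sides of the eCLIP libraries. A site counts only its own eCLIP 1 peak but the sum of all overlapping peaks of the other libraries, which can lower eCLIP 1 here.

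RNR1 (ENSG00000211459.2), the 12S rRNA of the small subunit, held 13 sites between positions 918 and 1414. The median site had 724 reads in eCLIP 1, 173 in eCLIP 2, 121 in input 1 and 172 in input 2. Per 10000 reads in peaks, the gene took 62.5 and 62.1 in the eCLIP libraries, against 24.5 and 102 in the inputs, again with an input on each side. Across both rRNAs, eCLIP 1 had more reads than eCLIP 2 at all 43 sites, by a median of 2.14 times, and input 2 had more reads than input 1 at 41 of 43, by a median of 5.23 times. The mitochondrial rRNAs supplied 34.4% of the reads at shared sites in eCLIP 1, 47.0% in eCLIP 2, 17.9% in input 1 and 59.5% in input 2.

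Mitochondrial mRNAs were nearly all represented. Of the 13 protein-coding genes of chromosome M, 12 held a shared site, 28 sites in all. ND4L, a subunit of complex I, was the exception, with 4, 2, 0 and 1 peaks in eCLIP 1, eCLIP 2, input 1 and input 2. The median site of the class had 243, 66.5, 15.5 and 47.5 reads, in the same order of libraries. Input 1 was the lowest library by share for 12 of the 12 genes, and the highest was eCLIP 2 for 7 and input 2 for 5.

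Among the complex I subunits, ND4 and ND5 held 4 sites each, ND1 held 3, ND2 and ND6 held 2 each and ND3 held 1. ND4 had medians of 265, 131, 38 and 104 reads per site in eCLIP 1, eCLIP 2, input 1 and input 2, and ND5 had 161, 55, 10.5 and 33. ND6, the protein-coding gene of the other strand, had its sites at 14354 to 14401 and 14402 to 14416 on the minus strand. The first of them had 461, 223, 21 and 52 reads. By share of all its peaks, ND6 took 4.97 and 25.05 per 10000 reads in the eCLIP libraries, against 1.51 and 5.30 in the inputs, and the groups overlapped because eCLIP 1 lay just below input 2.

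COX1, the catalytic subunit of complex IV, held 3 sites, COX2 and COX3 held 1 each, ATP6 and ATP8 of the ATP synthase held 3 and 2, and CYTB of complex III held 2. The COX1 site at 6201 to 6269 had the most reads of any mitochondrial mRNA site in eCLIP 1, with 770, 153, 41 and 43 reads in eCLIP 1, eCLIP 2, input 1 and input 2. In ATP6 the site at 8625 to 8650 had 259, 141, 28 and 170. The order of the libraries thus changed from gene to gene, with eCLIP 2 below input 2 in reads at the ATP6 site and above it at the COX1 site.

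For the 12 mRNA genes, the share in eCLIP 1 was above that in input 1 in 12 and above that in input 2 in 0. The share in eCLIP 2 was above that in input 2 in 7. Of the mitochondrial tRNAs, the genes for tyrosine, histidine and proline tRNA (TRNY, TRNH and TRNP) held 1 site each. Their eCLIP 1 reads were 66, 87 and 114, and their reads in the inputs were between 5 and 11.

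**Figure D3:**
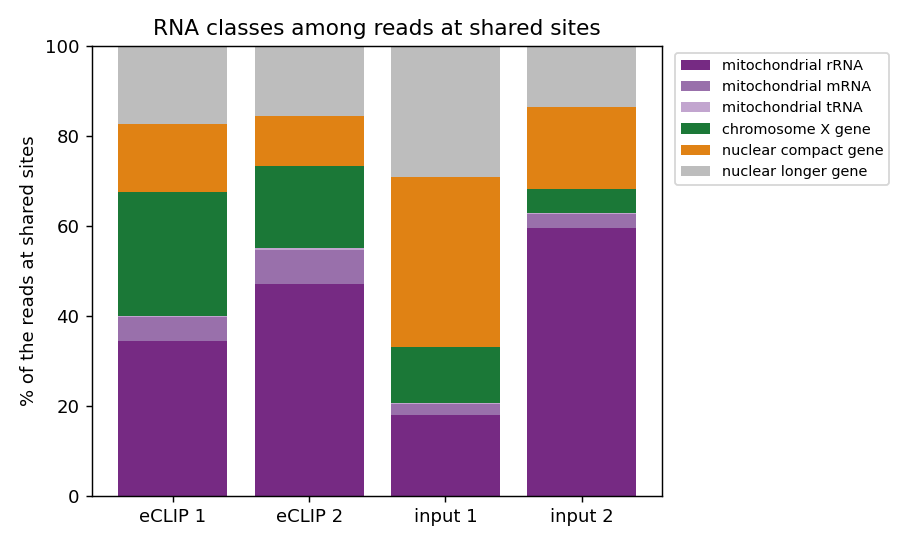
Composition of the reads at shared sites in each library, as stacked percentages by RNA class. Mitochondrial rRNA ranges from 17.9% in input 1 to 59.5% in input 2, the chromosome X gene falls from 27.6% in eCLIP 1 to 5.42% in input 2, and compact nuclear genes are highest in input 1 at 37.8%.

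The gene with most shared sites was ENSG00000229807.5 on the minus strand of chromosome X, with 68 sites between positions 73041553 and 73071388. Its median site had 522 reads in eCLIP 1 (298 to 1105), 91 in eCLIP 2 (39 to 185), 42 in input 1 (21 to 96) and 33 in input 2 (14 to 139). In reads, every site was higher in eCLIP 1 than in any other library, and eCLIP 2 lay above input 2 at 60 of the 68. By share of the reads in peaks at single sites the order was less clear. Medians per 10000 were 1.77 and 4.21 in the eCLIP libraries, against 1.76 and 3.36 in the inputs. Both eCLIP libraries lay above both inputs at 3 sites and below both at 6, and the groups overlapped at 59. Over all its peaks the gene had 141049, 10772, 4427 and 3377 reads in eCLIP 1, eCLIP 2, input 1 and input 2. Those reads lay in 328, 154, 105 and 78 peaks, and a site counts only 1 of the eCLIP 1 peaks. As a share of the reads in peaks, the whole gene was higher in both eCLIP libraries than in both inputs. The gene gave 27.6% and 18.3% of the reads at shared sites in the eCLIP libraries, against 12.5% and 5.42% in the inputs.

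The sites of this gene formed a pair of blocks. The upstream block, from 73061380 to 73071388, held 45 sites and the downstream block, from 73041553 to 73047154, held 23. Between them lay 14225 bases with no shared site, where eCLIP 1, eCLIP 2, input 1 and input 2 listed 4, 1, 11 and 6 peaks. Those peaks held 1.02% and 0.343% of the gene's reads in the eCLIP libraries, against 13.0% and 6.22% in the inputs. Both inputs thus had a larger part of the gene's reads in the stretch than both eCLIP libraries. With 2 libraries against 2, an exact permutation test cannot give a two-sided p below 0.33. In the blocks, the median site had 534 reads upstream and 475 downstream in eCLIP 1, and 48 and 30 in input 2.

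**Figure D4:**
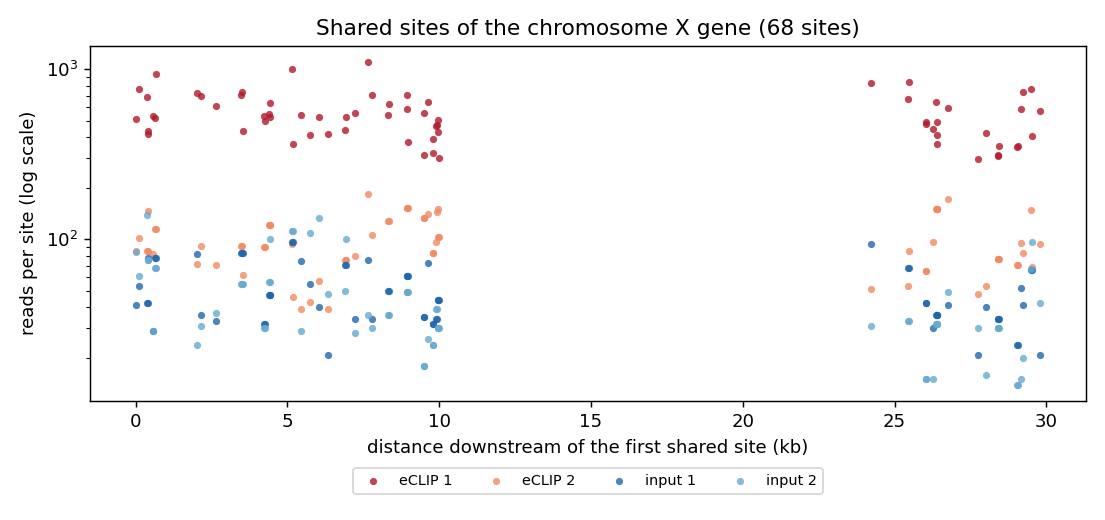
Reads per site (log scale) in each library at the 68 shared sites of the chromosome X gene, by distance in kilobases downstream of its first site. The 45 sites of the upstream block and the 23 of the downstream block are separated by a stretch without shared sites, and eCLIP 1 lies above the other libraries throughout.

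A longer gene on the plus strand of chromosome 11 held 11 sites between 65268497 and 65273426. Its median site had 138 reads in eCLIP 1, 30 in eCLIP 2, 18 in input 1 and 16 in input 2. Its strongest site, at 65273314 to 65273426, had 421, 44, 22 and 56 reads. Next to it, at 65273245 to 65273287, the reads were 155, 17, 11 and 56. The whole region from 65273134 to 65273451 had 56 reads in input 2, so both sites met the same input 2 reads.

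The largest input signal outside chromosome M lay on the minus strand of chromosome 11, in a region from 62609112 to 62609282 where the compact gene ENSG00000222328.1 lies within the peaks of a longer gene. The 2 entries held 4 and 8 shared sites, and their peaks overlap, so the same reads can count under both. At the site from 62609193 to 62609226 of the compact gene the reads were 1032, 332, 1344 and 988 in eCLIP 1, eCLIP 2, input 1 and input 2. The 1344 is a sum over overlapping peaks, since no single peak of input 1 had more than 711 reads. The 1032 is the site's own eCLIP 1 peak alone. Over the whole region the reads were 7759, 676, 2075 and 1990, in the same order of libraries. The region took 26.4 and 31.2 per 10000 reads in peaks in the eCLIP libraries, against 87.0 and 203 in the inputs, so both inputs lay above both eCLIP libraries. The compact gene ENSG00000202198.1 on the plus strand of chromosome 6 held 5 sites between 52860634 and 52860694, of 788 to 1271 reads in eCLIP 1. All 5 met the same peak in each other library, of 459, 603 and 463 reads in eCLIP 2, input 1 and input 2. For the strongest of these sites the shares were 4.32, 21.2, 25.3 and 47.2 per 10000, which sets 1 of the 5 eCLIP 1 peaks against an undivided peak elsewhere. Over the whole region from 52860614 to 52860735 the shares were 19.2, 29.4, 25.3 and 47.2, so the groups overlapped.

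The other nuclear entries with 4 or more sites had fewer reads in eCLIP 1 than those described above. Entries on chromosome 1 (minus strand, 173833302 to 173836883, 5 sites), chromosome 19 (plus strand, 49993227 to 49994508, 4 sites), chromosome 17 (plus strand, 7478032 to 7481412, 4 sites listed under 3 overlapping entries) and chromosome 20 (plus strand, 2634844 to 2637333, 4 sites) had medians of 50, 87.5, 81 and 57 reads in eCLIP 1. In eCLIP 2 those medians were 8, 11.5, 15.5 and 9, in input 1 they were 4, 18.5, 54.5 and 22, and in input 2 they were 10, 43.5, 42.5 and 19.5. The chromosome 17, 19 and 20 sites thus had higher medians in both inputs than in eCLIP 2, while on chromosome 1 the median of eCLIP 2 lay between those of the inputs.

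The compact nuclear genes were the class with the lowest median ratio of eCLIP 2 reads to the reads of either input. Their median site had 63 reads in eCLIP 1, 12 in eCLIP 2, 24 in input 1 and 21 in input 2. Against input 1, eCLIP 1 had a median of 1.66 times the reads in this class and 4.41 times in longer genes, the chromosome X gene included. The median ratio of eCLIP 2 was 0.546 to input 2 and 0.5 to input 1 in compact genes, and 1 to either input in longer genes. By share, both eCLIP libraries lay below both inputs at 99 of the 144 compact sites (68.8%) and above both at 1, against 167 and 12 of the 394 sites in longer genes. A site counts 1 peak of eCLIP 1 but the sum of all overlapping peaks of the other libraries, which can lower the share of eCLIP 1. Over all 612 sites, 201 met the same peaks in all 3 other libraries as another site, so some peaks count repeatedly. This class supplied 15.2% and 11.2% of the reads at shared sites in the eCLIP libraries, against 37.8% and 18.1% in the inputs. Because 86 sites of compact genes also lie under another gene or overlap a site of one, the classes are not cleanly separate. Copies of small RNA genes and of mitochondrial sequence occur elsewhere in the nuclear genome, and how reads matching several copies were assigned is not given in the sources used here.

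Across the 612 sites, reads followed each other most closely within the groups. Pearson's r of log2 reads was 0.847 between the eCLIP libraries and 0.836 between the inputs, and between 0.638 and 0.725 for pairs of an eCLIP library with an input. Without chromosome M and the chromosome X gene (470 sites) the values were 0.710, 0.823 and 0.472 to 0.641. These are descriptions over sites, which share their library and, for touching sites, often the same peak. Within the chromosome X gene alone, over 68 sites, this order did not hold: r was 0.487 between eCLIP 1 and input 1, 0.447 between the inputs and 0.240 between the eCLIP libraries, and 0.0048 to 0.216 for the other pairs.

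Peaks of the other libraries lay close to those of eCLIP 1. The position that the files give inside each peak differed by a median of 0 bases in eCLIP 2, 1 in input 1 and 0 in input 2, counted downstream. It lay within 10 bases of the eCLIP 1 position at 77.3%, 63.7% and 71.7% of the sites. At the edge of the rule, 7 sites overlapped a peak of another library by just 1 base, with a median of 315 reads in eCLIP 1 (23 to 597). Just outside it, 11 intervals touched a peak of the 1 library they lacked, with a median of 70 reads (23 to 1230).

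Whether the immunoprecipitation changed a region's share was tested over all merged regions with a peak in at least 2 libraries, 21178 in all, on log2 of the reads per 10000 reads in peaks plus 0.5. The limma fit, with Benjamini-Hochberg adjustment over all regions, called 0 regions higher in eCLIP (0% of those tested) and 4 lower (0.0189%), and the 4 all held shared sites. At an unadjusted p under 0.05 it had 167 higher and 422 lower, with 0 and 8 among the 416 regions that hold shared sites. The 4 were the chromosome 11 region and 3 regions of RNR2. For the chromosome 11 region the log2 difference, eCLIP minus input, was -2.19 (SE 0.13, limma adjusted p = 4.85e-64). That SE rests on the variance trend over all regions, and not only on this region's 4 libraries.

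The 3 RNR2 calls do not separate the groups. The region from 2130 to 2445, with 20 sites, took 100.8 and 342 per 10000 in the eCLIP libraries, against 43.2 and 1854 in the inputs, and its log2 difference of -0.61 came with an SE of 0.011. An SE this small does not reflect the spread of the region's own libraries, and without the variance trend the region was not called. The region from 1820 to 1932 took 23.2, 76.0, 30.4 and 630 in eCLIP 1, eCLIP 2, input 1 and input 2, and the region from 1702 to 1768 took 16.4, 86.1, 26.7 and 293. Both of these regions and the chromosome 11 region were still called without the variance trend, where limma called 723 regions in all. In regions with a peak in at least 3 libraries, and at a deposited p of up to 0.001, limma called 0 regions, so the 4 calls are not read as differences that hold across settings. The difference of the chromosome 11 region itself kept its sign and ran from -2.80 to -1.57 over all settings tried, at -2.19 and -2.40 under those 2, so what was lost there is the call and not the fold. Leaving out input 1 or input 2 also gave 0 calls, while leaving out eCLIP 1 or eCLIP 2 gave 10963 and 10966 over all regions, with 9 and 11 among those holding shared sites.

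The order of the 4 shares is given as a description, with no test. Both eCLIP libraries lay above both inputs in 36 of the 416 regions with shared sites (8.65%), against 52.6% of all 21178, and below both in 161 (38.7%), against 7.08%. The 2 figures are not on an equal footing, since 2023 of the 21178 had a peak in at least 3 libraries, while the shared regions have a peak in every library by choice. The median log2 difference of the shared regions was -0.46, where that of all regions was 0.20. Shares depend on what is in each list, and input 2 had the shortest. Centred on the regions with a peak in all 4 libraries, 29.8% of the shared regions lay above (all regions 59.5%) and 25.7% below (2.84%), and their median was 0.16. The centring used 437 regions, and the 416 shared regions are among them, so their small median and near-even split follow largely from the scaling itself. That scaling therefore cannot show a direction for the shared regions as a whole. On that scaling limma called 6 of the 416 shared regions higher and 8 lower, against 172 higher and 40 lower of all 21178 regions.

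No region with shared sites passed the threshold higher in eCLIP. Of the 5 with the lowest p in that direction, the first, in ENSG00000071626.11 between 1426214 and 1426343 on chromosome 19 (plus strand), had 1006 and 81 reads in the eCLIP libraries, against 3 and 5 in the inputs. Its shares were 3.42 and 3.74 per 10000 against 0.126 and 0.509, a log2 difference of 2.36 (SE 1.65, limma adjusted p = 0.507, and 1.35e-05 with the centred scaling). Next came the region of the chromosome X gene from 73061856 to 73062002, with 12.8 and 14.4 per 10000 in the eCLIP libraries against 2.73 and 1.83 in the inputs, a log2 difference of 2.36 (SE 1.89, limma adjusted p = 0.507, and 0.0212 when centred). Regions on chromosome 5 (plus strand, 134262721 to 134262777), chromosome 22 (plus strand, 29687245 to 29687323) and chromosome 13 (minus strand, 107211240 to 107211278) had log2 differences of 1.19, 1.44 and 0.92, each with a limma adjusted p of 0.507, and of 0.0657, 0.0138 and 0.271 when centred. Their size depended on the pseudocount, with 1.86, 2.17 and 1.62 at 0.1. The chromosome 5 value also rested on single libraries, at 2.14 without eCLIP 1 and 0.25 without eCLIP 2. In each of these 5 regions the groups did not overlap, which can follow from their choice by lowest p. The inputs had 3 and 3 reads on chromosome 5, 6 and 3 on chromosome 22, and 3 and 3 on chromosome 13. These lie at or near the minimum of 3 reads for a listed peak. The fifth of the lower regions, between 50053511 and 50053587 on chromosome 14 (plus strand), took 0.890 and 1.20 per 10000 in eCLIP, against 13.9 and 54.998 in the inputs, a log2 difference of -4.20 (SE 1.84, limma adjusted p = 0.507). With the centred scaling it was -3.58, with a limma adjusted p of 0.00248.

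**Figure D5:**
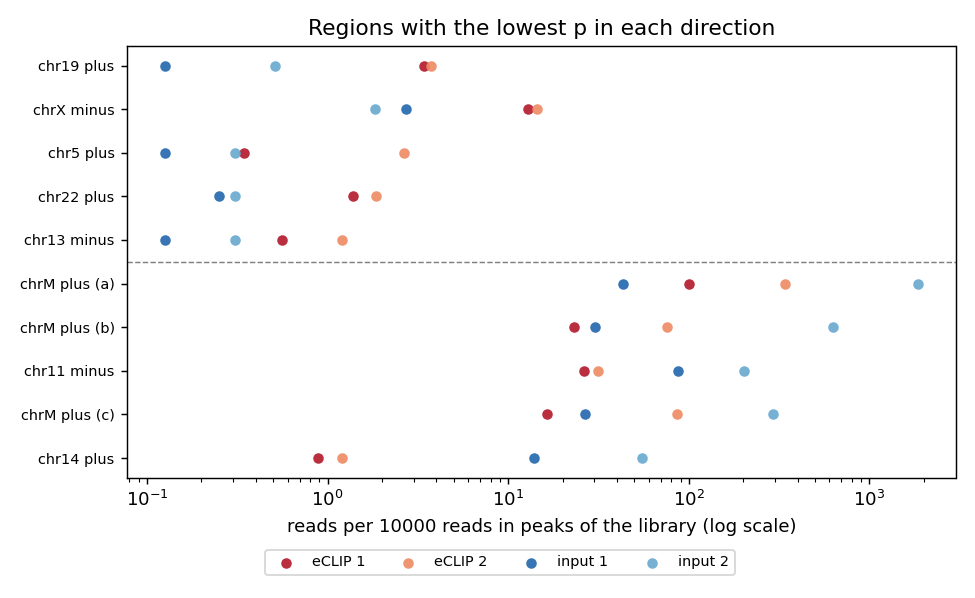
Reads per 10000 reads in peaks (log scale) in each library for the regions with shared sites that had the lowest p higher in eCLIP (above the dashed line) and lower in eCLIP (below it); chrM plus a, b and c are the RNR2 regions starting at 2130, 1820 and 1702. Both eCLIP libraries lie above both inputs in the upper 5 regions, and in the RNR2 regions the groups overlap.

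Input 1 carried a further difference between strands. On its minus strand 39.6% of the distinct intervals touched the next one, against 8.01% on its plus strand and at most 3.03% on either strand of the other libraries. Touching intervals may hold the same reads. Away from chromosome M and the chromosome X gene, the 239 plus-strand sites had a median of 11 reads in input 1 and the 231 minus-strand sites had 12, with 12 and 13 in input 2. Both eCLIP libraries lay below both inputs at 52.3% of the plus-strand and 58.4% of the minus-strand sites, again with 1 peak of eCLIP 1 counted per site.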

How the data were processed

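Peaks of 2 eCLIP libraries and 2 size-matched inputs were analysed. Per the submitters' processing notes, cutadapt, STAR and SAMtools were used with the hg19 build; their versions and how peaks were called (program and settings) were not given in the sources used here. For each library the authors deposited 1 peak list, with a score and a p-value (up to 0.05) for each peak; the whole number at the end of the deposited peak name was read as reads, which the files do not state. A peak listed under several genes was counted once.

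Overlaps were found in Python 3.11.15 with pandas 2.3.3 and checked with bedtools 2.31.1. Regions were tested with limma 3.58.1 in R 4.3.3 (lmFit, eBayes with a trend, two-sided, threshold 0.05). The fit was also run on simulated reads. Within a group these varied only by counting error, so that run cannot show how well the SEs hold in these data. Deposited reads in peaks are not counts of whole libraries, so no count model was used.

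The files pair no gene with a name. The 29 identifiers of chromosome M were named from RefSeq (GRCh38.p14), since all peaks of each lay within exactly 1 of its 37 mitochondrial genes; printed coordinates are the files' own, counted from 1. Nuclear genes are given by position, with at most 2 identifiers in each direction. Exons, introns, UTRs, sequences and the gene lists outside chromosome M were not analysed here. Named were the 15 genes with most shared sites, the 12 sites with the highest lowest share, the 5 regions of lowest p in each direction, and mitochondrial genes with a shared site. The sites, lists and rules were chosen with earlier results of these data known.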

Additional observations from a re-analysis of the deposited data

How the results depend on the processing

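The 612 sites became 351 with peaks limited to a deposited p of 0.001, and 544 to 1326 when 1 library was not required. The 6 other settings tried kept the number within 1.5 times. The mitochondrial share of sites (12.1%) was 18.8% at that p limit, 8.79% counted on input 2, 8.26% with touching peaks merged and 7.32% to 9.38% with 1 library left out. The chromosome X gene (11.1%) had 19.4% at the p limit and 7.71% to 9.38% with 1 library left out, and compact genes (23.5%) had 28.4% with touching peaks merged and 13.4% to 22.4%. Counting each merged region once, which was chosen after seeing the data, gave 7.45% mitochondrial and 30.5% compact. Median reads per site at the p limit were 153 in eCLIP 1, 38 in eCLIP 2, 37 in input 1 and 35 in input 2, so eCLIP 2 was above both inputs there and below both with all peaks (14 against 16 and 18). With only the strongest overlapping peak they were 14 and 14 in the inputs, counted on input 2 they were 14 and 13, and without chromosome M and the chromosome X gene (also chosen after seeing the data) 11 and 12.5. Limma called 4 regions, all with shared sites. It called 0 in regions with a peak in 3 libraries or at the p limit, 14 without a filter (13 with shared sites), 212 when centred (14), 723 without a variance trend (100), and 0 to 10966 (0 to 11) with 1 library left out, where a lone library is assumed to vary like the other group. Both fits with a lone eCLIP library called over 10000 regions, and both with a lone input called 0. The log2 difference of the RNR2 region from 2130 turned to 0.0094 when centred and to 0.27 without eCLIP 1. With 1 library left out it ran from -3.32 to 2.09, that of the region from 1820 from -3.89 to 0.46 and that of the region from 1702 from -2.94 to 0.49, each positive without input 2. The cause was not tested. The replicate numbers are shared only as numbers, with 2 pairs and a correlation of deviations of 0.208, and with the replicate number as a block limma called 3 regions. The unknown depth limits all shares.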
